A study of Rattus norvegicus with 8 samples.

Results

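Of the 22523 probes read in the enamel organ of the rat incisor, 215 were detected on all 4 maturation-stage arrays and on none of the 4 secretory-stage arrays. These 215 probes, 0.955% of all, carried 215 different gene symbols and were selected on the detection p-value of the non-normalized table: it had to be below 0.05 on every maturation array and 0.05 or more on every secretory array. The detection p-value states how often a negative-control bead type was as bright as the probe. Genes whose symbol starts with Slc, and Cftr, were left out, which removed 7 genes (Slc23a2, Slc26a1, Slc2a12, Slc2a13, Slc43a2, Slc9a7 and Cftr). Because the same detection values chose the genes, every difference between the stages below is a description. The calls of a fit over all probes are counted beside their background, and nothing is read from them.

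The samples came from 4 male Wistar Hannover rats aged 4 weeks, untreated and of no stated genotype. Each animal provided tissue of both stages, and the 8 samples were read separately on Illumina RatRef-12 v1 arrays, so both groups hold 4 animals. The sampled material was the multicellular layer over the enamel surface, and in such bulk tissue fewer cells of a type and less RNA per cell cannot be told apart. Titles, descriptions and tissue labels gave the stages, and for maturation replicates 2, 3 and 4 the source label named the secretory stage instead.

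Ameloblasts are the epithelial cells that build enamel. In the secretory stage they lay down a protein-rich matrix, and in the maturation stage proteases degrade this matrix while the cells move ions in and out so that the mineral can harden. Klk4, the serine protease kallikrein 4, is the textbook protease of the maturation stage, and its loss leaves enamel soft.

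The label of the group holds for the probes and not for every gene. Other probes were present for 13 of the 215 genes, 14 probes in all. For 5 of these genes, among them Klk4, Tm7sf2, LOC364773 and LOC498909, the other probe was detected on all 4 secretory arrays. For Gcgr and LOC290071 another probe was detected on some of them. For 5 genes (Abcb10, Abhd1, Nritp, Abcb4 and Auts2) the other probe was detected on no array of either stage. The other probe of Mcoln3 was detected on 3 maturation arrays and no secretory array, at means of 129.9 and 102, and no gene had another probe that was detected on all maturation arrays and on no secretory array.

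Most of the 215 signals lay just above the level at which a probe counted as detected. The raw AVG_Signal is the mean brightness of the beads that carry a probe, in arbitrary units, before any background correction or normalization. Averaged over the 4 maturation arrays, the member signals ranged from 129 to 4583 with a median of 143.9 and quartiles of 136 and 166. On the secretory arrays the same probes averaged 96.0 to 115, with a median of 109. The probes detected on all 8 arrays, 9156 in number, had a median of 453 in the maturation stage, and 95.4% of them were brighter there than the median member.

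**Figure D1:**
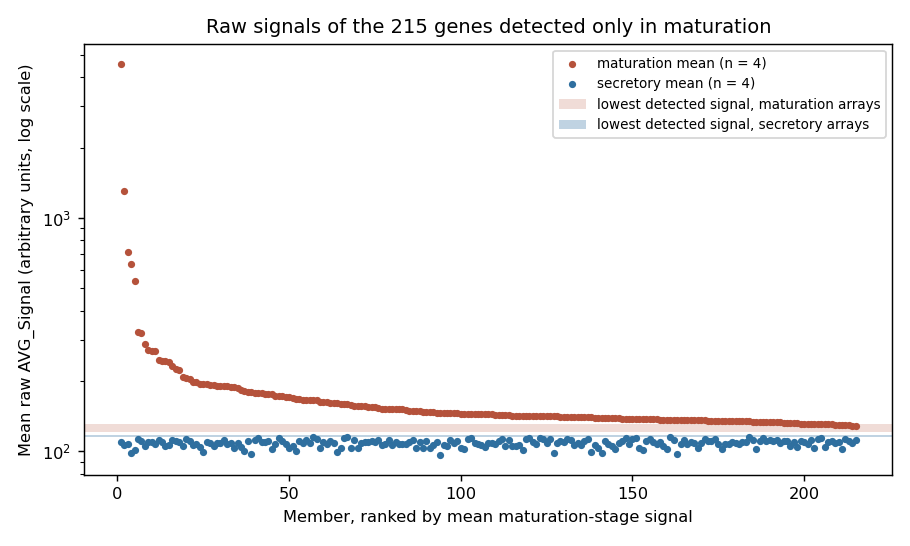
Mean raw AVG_Signal of each member on the 4 maturation arrays (red) and the 4 secretory arrays (blue), on a log axis, against its rank by maturation signal. The bands span the lowest signal of a detected probe on the arrays of each stage. The 5 brightest members stand above 500, and 132 of 215 lie below 150.

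The bar for detection was itself higher in the maturation stage. The lowest signal of a detected probe was 121 to 130.1 on the maturation arrays and 115 to 117 on the secretory arrays, and probes with a detection p near 0.5 read 105 to 111 and 101 to 102 respectively. Divided by that background level, the member signals in the maturation stage had a median of 1.32 and a range of 1.18 to 42.0. In the secretory stage they had a median of 1.07 and a range of 0.943 to 1.13. Only 5 members averaged over 500 in the maturation stage and 21 over 200, while 132 (61.4%) were below 150.

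The 4 maturation signals of every member were above its 4 secretory signals, 215 of 215, where 44.1% of all 22523 probes showed this in the raw signals. After background correction and quantile normalization the groups did not overlap for 203 members, against 13.1% of all probes. In a limma fit over all probes, 95 of the 215 members passed an adjusted p of 0.05 with a fold of at least 1.8 towards the maturation stage, against 4.57% of all probes. The number was 37 with an offset of 50, where 3.26% of all probes passed, and 15 without background correction, where 2.34% did. It was 81 with normexp without negative controls (3.92% of all probes), 93 with cyclic loess (5%), 99 with scaling to a common median (5.84%) and 133 without normalization between arrays (10.1%). The rule used this contrast, so these counts are no evidence for the members.

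A member has only a bound in the secretory stage, since it was not above the negative controls there. Its fold is therefore given as the maturation mean over the secretory mean of the higher of its own value and the lowest detected value, on the normalized log2 scale with an offset of 16. These values hold as bounds for that scale only, since they depend on the background correction. They had a median of 1.31-fold, which was 1.09-fold without background correction and 1.16-fold with an offset of 50. They were at least 5-fold for 7 members and at least 1.8-fold for 57, which fell to 2 and 11 members without background correction and were 11 and 82 without normalization between arrays. For 6 members the bound did not exceed 1, and no fold is given for them. Folds of single members are given below after background correction and without it. The former can be above the ratio of the raw means, since the correction subtracts the background from both, and the latter is the more cautious bound.

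Detection on all 4 maturation arrays and no secretory array was found for 222 probes before the symbols were considered, and the opposite pattern for 61. Without the Slc symbols the secretory-only genes numbered 60, with a median secretory signal of 139.6. A further 131 probes outside the excluded symbols were detected on 3 maturation arrays and no secretory array, and 159 on 4 maturation arrays and 1 secretory array.

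**Figure D2:**
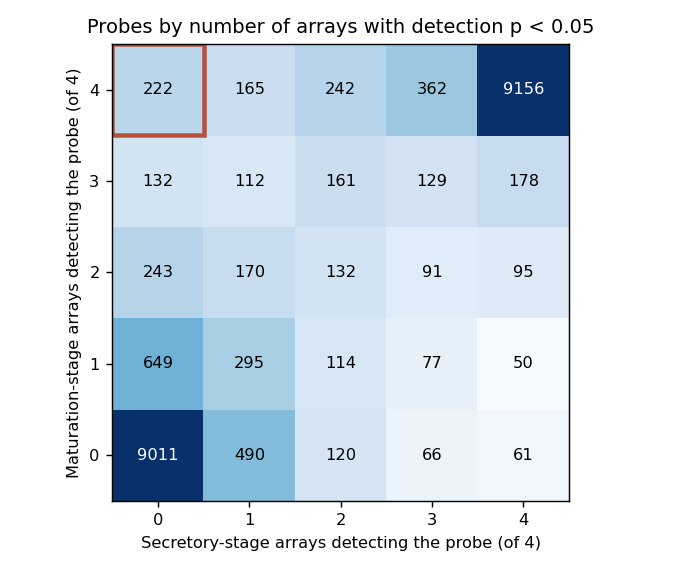
Number of probes by how many of the 4 secretory arrays (horizontal) and how many of the 4 maturation arrays (vertical) gave a detection p below 0.05, shaded by the logarithm of the number. The outlined cell holds the 222 probes from which the 215 members were taken, and 9156 probes fall in the opposite corner of full detection.

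The values next to the threshold differed little from those across it. Just inside, LOC361230 and LOC501104 had the largest maturation detection p, 0.0497, at signals of 130.1 on array M1 and 127 on array M4. Just outside, Brip1 missed by 1 array at a detection p of 0.0521 and a signal of 129.7 on M1, and LOC360509 and Nfat5 missed on M2 with the same p. On the secretory side, LOC303575 and Pfkfb4 were inside with a smallest detection p of 0.0509. Ms4a12 and Picalm fell outside with 0.0497 on S1, and Nbeal2 with 0.0485.

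The brightest gene that missed the rule by 1 secretory array was far brighter than most members. Csn10, casein kappa, averaged 9201 on the maturation arrays and 108 on the secretory arrays, and was kept out by 1 secretory detection p of 0.0291. It was singled out after its values were seen.

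Promoter sequences are shown for LOC298340 and Gpr155, the brightest members with an entry in the RefSeq promoter table, for Inhba, the brightest secreted ligand, and for Cma1, the brightest mast cell gene. Each runs 5′ to 3′ from 250 bases before to 50 bases after the annotated start in the GRCr8 assembly. Capitals mark matches, on either strand, to the TATA box TATAAA, the GC box GGGCGG, the CCAAT box, the AP-1 site TGANTCA, the cyclic AMP response element TGACGTCA and the E-box CACGTG. The table held no entry under the gene ID of Klk4, Snap25, Nrip3 or Fos.
LOC298340 (Slc6a14), chrX:117144676-117144975, plus strand: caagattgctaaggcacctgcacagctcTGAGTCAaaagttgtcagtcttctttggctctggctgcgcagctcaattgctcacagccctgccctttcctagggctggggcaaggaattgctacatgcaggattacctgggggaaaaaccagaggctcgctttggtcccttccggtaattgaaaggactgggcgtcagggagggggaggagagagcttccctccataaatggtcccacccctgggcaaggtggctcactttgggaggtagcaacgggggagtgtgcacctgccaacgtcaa
Gpr155, chr3:78677754-78678053, minus strand: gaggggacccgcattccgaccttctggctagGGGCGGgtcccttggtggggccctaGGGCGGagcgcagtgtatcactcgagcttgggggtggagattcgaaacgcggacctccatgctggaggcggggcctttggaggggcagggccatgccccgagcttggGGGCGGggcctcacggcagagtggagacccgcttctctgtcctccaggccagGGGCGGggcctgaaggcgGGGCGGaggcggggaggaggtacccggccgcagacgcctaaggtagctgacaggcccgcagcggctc
Inhba, chr17:53804459-53804758, minus strand: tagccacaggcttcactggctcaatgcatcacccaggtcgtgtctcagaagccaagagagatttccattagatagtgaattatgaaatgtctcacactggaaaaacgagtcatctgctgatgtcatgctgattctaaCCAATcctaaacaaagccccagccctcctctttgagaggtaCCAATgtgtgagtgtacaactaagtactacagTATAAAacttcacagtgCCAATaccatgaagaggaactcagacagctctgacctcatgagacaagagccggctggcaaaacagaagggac
Cma1, chr15:33390084-33390383, minus strand: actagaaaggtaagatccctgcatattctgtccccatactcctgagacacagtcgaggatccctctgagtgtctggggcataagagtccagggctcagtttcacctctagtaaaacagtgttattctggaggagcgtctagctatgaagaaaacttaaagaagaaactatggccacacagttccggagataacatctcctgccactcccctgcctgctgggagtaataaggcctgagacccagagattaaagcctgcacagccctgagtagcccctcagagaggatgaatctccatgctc
The promoter of Gpr155 held 5 matches, all to GGGCGG, and that of Inhba held 4, of which 3 were to CCAAT and 1 to TATAAA. The promoter of LOC298340 held 1 match, to TGANTCA, and none of these letters were found in the window of Cma1.

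Promoters were found by gene ID for 151 of the 215 members. Shares are given against the 13295 promoters of genes on the array and then the 27457 promoters of the whole table. GGGCGG occurred in 47.0% of the member promoters, 48.8% of those of array genes and 34.9% of all. TATAAA was found in 11.9%, 11.8% and 14.3%, and CCAAT in 33.8%, 37.9% and 37.7%. TGANTCA, the letters bound by Fos-containing AP-1, was found in 14 member promoters (9.27%), against 6.35% and 7.33%. CACGTG was found in 7.95%, 7.96% and 6.65%, and TGACGTCA in 1.32%, 2.51% and 1.91%. No motif is contained in another, and a match is a description of letters and not of binding.

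The members were sorted by hand into kinds by their known function after their names were seen, and one gene has one kind. Metabolic enzymes and binding proteins were the most numerous with 34 genes, followed by 15 each of channels, pumps and carriers, of small GTPase and G protein regulators, and of transcription factors and chromatin proteins. Immune and inflammatory proteins had 13 members, proteases, their inhibitors and matrix proteins 13, and G protein-coupled receptors, other cell-surface receptors and secreted ligands 11 each. A further 31 genes were other or not characterised. The median maturation signal of a kind lay between 136 and 188, so no kind as a whole was bright, and the range within a kind came from 1 or a few genes.

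**Figure D3:**
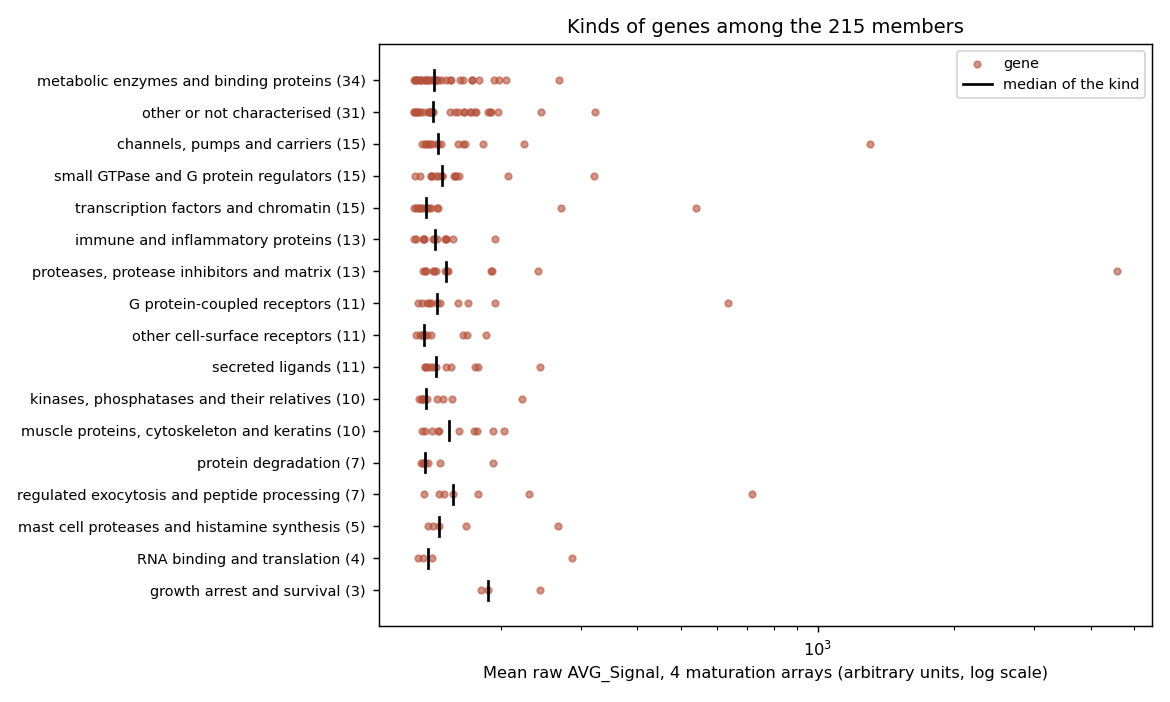
Mean raw AVG_Signal of each member on the 4 maturation arrays, on a log axis, by hand-assigned kind with the number of genes in parentheses. Points are genes and black bars are medians of the kind. All medians lie between 136 and 188, and the bright genes belong to different kinds.

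Among the proteases, inhibitors and matrix proteins, Klk4 was the brightest member of all. Its signals on maturation arrays M1 to M4 were 4619, 4902, 3601 and 5209.8, and on secretory arrays S1 to S4 104, 107, 108 and 117. Its maturation mean was 4583 ± 698 (SD, n = 4). Its fold was at least 117 after background correction and normalization, 32.1 without background correction and 146 without normalization between arrays, and its raw means had a ratio of 42.1. It alone gave 11.3% of the summed mean maturation signal of the 215 members. Its smallest secretory detection p was 0.0533, so the brightest member was also among those nearest the secretory threshold.

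The other probe of Klk4, annotated to the same transcript, was brighter in both stages. It read 11743, 12006, 8841 and 12303 on the maturation arrays and 117, 135, 131 and 159.5 on the secretory arrays, where it was detected on all 4. The stages did not overlap on either probe, and the probes differed on whether a low secretory signal was detected.

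The rest of this kind was dim. Mfap5, a microfibril-associated protein of elastic fibres, averaged 241 ± 27.2 on the maturation arrays against 106 ± 5.47 on the secretory arrays (SD, n = 4 each). The protease inhibitor alpha-2-macroglobulin, A2m, averaged 191 and Serpina3n, another inhibitor, 152. The stromelysins Mmp3 and Mmp10, matrix metalloproteinases encoded close together in the genome, averaged 137 and 136, and the matrilin Matn4 153.

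Among the channels, pumps and carriers, the amino acid transporter LOC298340 was second in brightness of all members. Its current symbol is Slc6a14, so it is a solute carrier that stayed in because the array's symbol does not start with Slc, and the same holds for Nritp, now Slc22a23. LOC298340 read 1001, 1664, 965 and 1603 on M1 to M4 and 105, 107, 109 and 105 on S1 to S4. M2 and M4 were well above M1 and M3, the mean was 1308 ± 377 (SD, n = 4), and the fold was at least 29.9 after background correction and 8.77 without it.

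The remaining 14 genes of this kind were below 225. Abcb10, an ABC transporter of the mitochondrial inner membrane, read 177, 284, 206 and 231 on the maturation arrays and 106 to 116 on the secretory arrays, and its other probe was detected on no array. Kcnh2, the potassium channel known as hERG, averaged 183 ± 7.98 and was among the steadier members. Itpr2, a calcium release channel of the endoplasmic reticulum, averaged 165, Clca2, of the calcium-activated chloride channel regulators, 161, and Abcb4, a phospholipid transporter, 136. The cation channel Trpv1 averaged 134 and phospholamban, Pln, a regulator of the calcium pump, 141.

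Genes of regulated exocytosis and peptide processing numbered 7 and included the third brightest member. Snap25, a SNARE protein that fuses vesicles with the plasma membrane, read 671, 843, 574 and 776 on M1 to M4 and 106, 102, 111 and 109 on S1 to S4. Its fold was at least 15.5 after background correction and 4.89 without it. Scg3, a granin of secretory granules, read 244, 233.8, 201 and 245 against 109 to 115 on the secretory arrays, at least 3.45-fold (1.67-fold without background correction). Ptprn, a receptor-type phosphatase relative of dense-core granules, averaged 178, Pcsk1, a convertase that cleaves prohormones, 157, and the synaptic vesicle protein Syngr1 149.7. By the symbol pattern for this family, 5 of its 93 probes on the array were members (5.38%), beside 0.955% of all probes. Other families had higher shares, 6.67% for amine, amino acid and nucleotide genes and 6.02% for the actin and myosin cytoskeleton. Cell cycle arrest and apoptosis genes had 5.56%, so a share of this size was not particular to exocytosis genes.

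Of the G protein-coupled receptors, Gpr155 was the only one over 200. It read 518, 849, 563 and 606 on M1 to M4 and 88.3, 97.7, 107 and 100.1 on S1 to S4, with M2 apart from the other arrays and a fold of at least 13.2 (4.30 without background correction). Tacr1, the receptor of substance P, averaged 169.8 ± 9.63 (SD, n = 4). The glucagon receptor Gcgr averaged 161 on its member probe, and 2 other probes of it were detected on all maturation arrays and on 2 secretory arrays each. By symbol pattern 9 of 332 such probes were members (2.71%). Only 2 of 1173 olfactory receptor probes were (0.171%), Olr472 at 139 and Olr590 at 134.

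The secreted ligands were led by Inhba, the activin beta A subunit of the TGF-beta family. Its maturation signals of 239, 243, 238 and 258 lay close together, against 101, 117, 114 and 105 in the secretory stage, and its fold was at least 3.81 after background correction and 1.77 without it. Fgf7, a growth factor that acts on epithelia, averaged 178 ± 7.95, and Tac4, a tachykinin precursor whose peptides bind Tacr1, 175 ± 12.9 (SD, n = 4 each). The interleukin 1 receptor antagonist Il1rn averaged 136 and its neighbour in the genome Il1f10 144. Egfr, the receptor of epidermal growth factor, averaged 165 ± 12.9 on the maturation arrays against 114 ± 2.05 on the secretory ones, the latter just under detection with a smallest p of 0.0606.

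**Figure D4:**
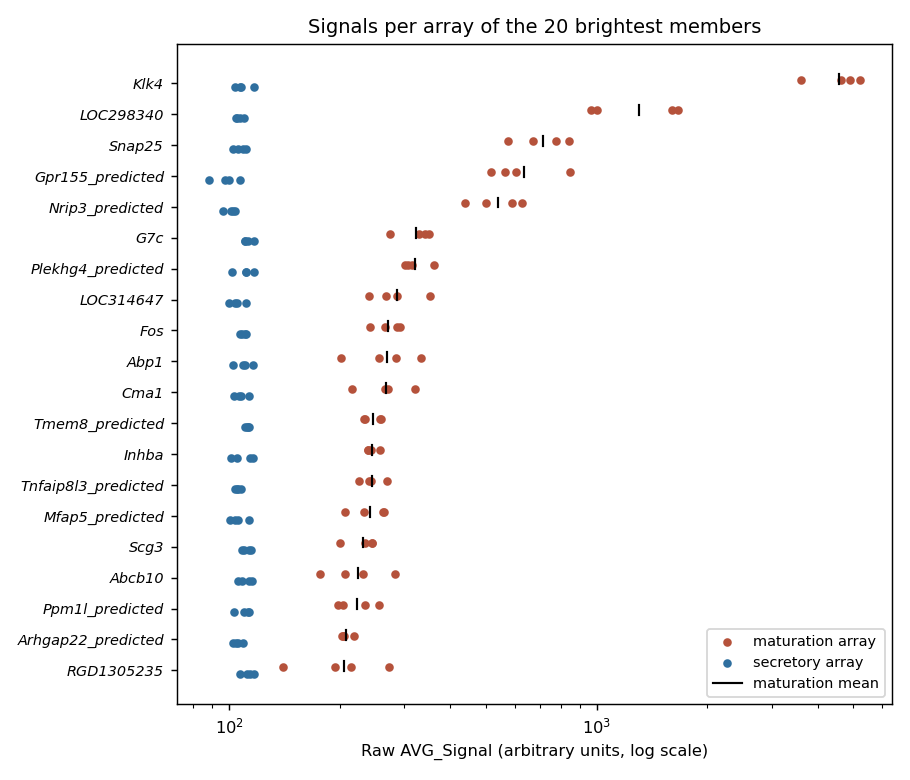
Raw AVG_Signal on each array for the 20 brightest members, on a log axis, with maturation arrays in red, secretory arrays in blue and the maturation mean as a bar. The stages do not overlap for any of them, and no member had a secretory signal above 117.1.

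Among the transcription factors and chromatin proteins, Nrip3, a nuclear receptor-interacting protein, was the brightest. It read 501, 625, 439 and 589 on M1 to M4 and 96.3, 104, 101 and 103 on S1 to S4, at least 11.0-fold (3.70-fold without background correction). Fos, an immediate early gene and subunit of AP-1, read 265, 287, 242 and 291 against 107 to 111, at least 4.46-fold (1.94-fold without). The other 13 were below 146, among them Sox10, a factor of neural crest cells and Schwann cells, at 145.6 and Dbx2, a homeobox factor, at 139. DNA-binding transcription factors by symbol pattern gave 6 members among 568 probes (1.06%), beside 0.955% of all probes.

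The small GTPase and G protein regulators were led by Plekhg4, an exchange factor for small GTPases. It read 316, 362, 306 and 301 on M1 to M4 and 102, 117, 111 and 111 on S1 to S4, at least 5.72-fold (2.28-fold without background correction). Arhgap22, a GTPase-activating protein for Rac, averaged 208 ± 7.66, and Rgs9 and Rgs5, which speed the inactivation of G protein alpha subunits, 162 and 159 (n = 4 each). By symbol pattern 7 of 221 such probes were members (3.17%). The phosphatase Ppm1l averaged 223, and the MAP kinase pathway members Map3k6, Mapk13 and Map3k14 averaged 149, 134 and 132.

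Enzymes that act on amines were represented by Abp1 and Aoc3, and by Hdc of the mast cell genes. Abp1, now Aoc1, is the diamine oxidase that breaks down histamine, and it read 332, 201, 285 and 256 on M1 to M4 and 111, 103, 116 and 109 on S1 to S4. Its mean was 268 ± 54.8 (SD, n = 4) and its fold at least 4.27 (1.90 without background correction). Aoc3, which oxidises primary amines, averaged 146, and Hdc, which makes histamine from histidine, 146. These 3 were all the members of the amine, amino acid and nucleotide family, which had 45 probes on the array (6.67%).

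Sugar metabolism gave 6 members of 156 probes (3.85%). Hk3, a hexokinase of myeloid cells, read 188, 135, 160 and 176, and averaged 165. Pfkfb2 and Pfkfb4, which set the level of fructose 2,6-bisphosphate, averaged 137 and 133, and Galnt10, a transferase of mucin-type O-glycosylation, 172. Of the lipid genes, Tm7sf2, a sterol reductase, averaged 198 ± 7.74 and Gdpd2, a glycerophosphodiesterase, 194 ± 26.1 (SD, n = 4 each).

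The other probes of 3 enzyme genes were much brighter and detected in both stages. That of Tm7sf2 averaged 698 ± 53.0 on the maturation arrays against 166 ± 2.59 on the secretory arrays (SD, n = 4 each). That of LOC498909, now Coq9, a protein of ubiquinone synthesis, averaged 5439.9 and 1713. That of LOC364773, now the aldo-keto reductase Akr1c12, went the other way, with a maturation mean of 7396 below its secretory mean of 20824, while its member probe read 163 and 103. The probe sequences are not in the deposited table, so which part of each transcript a probe reads is not given here.

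**Figure D5:**
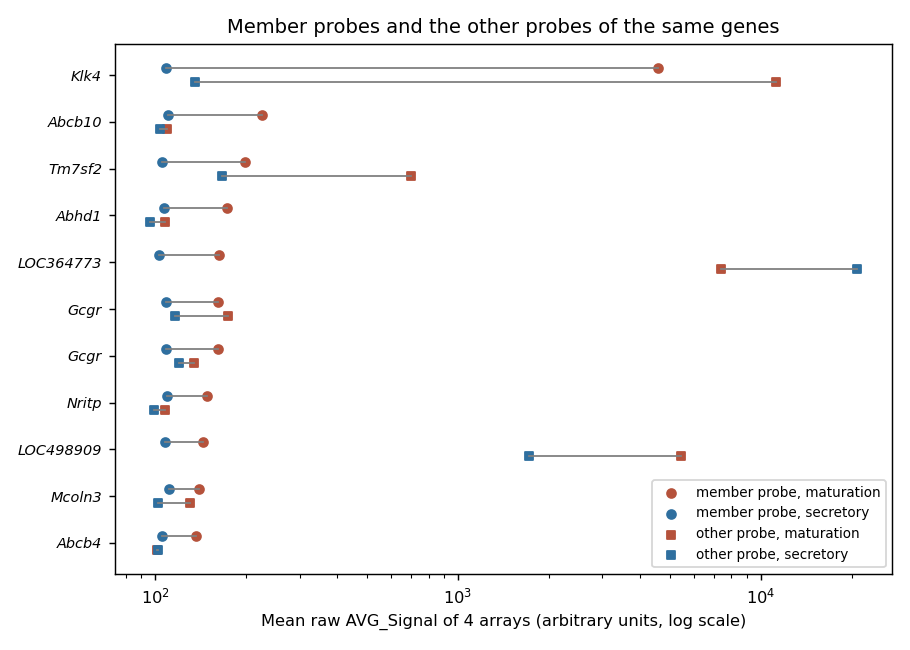
Mean raw AVG_Signal over 4 arrays, on a log axis, of member probes (circles) and other probes of the same gene (squares) on maturation arrays (red) and secretory arrays (blue). The rows are the 11 other probes of the 10 brightest members that have one. Those of Klk4, Tm7sf2, LOC364773 and LOC498909 were detected on all secretory arrays, and that of LOC364773 is brighter in the secretory stage.

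Mast cell genes made a small group of 5. Cma1, the chymase of connective tissue mast cells, read 270.2, 320.0, 266 and 216 on M1 to M4 and 113, 107, 107 and 103 on S1 to S4, at least 4.29-fold (1.90-fold without background correction). Mcpt2, a mast cell protease, averaged 142 ± 6.40, Cpa3, carboxypeptidase A of mast cells, 138 ± 13.02, and Hdc 146 ± 9.47 (SD, n = 4 each). RGD1565970, annotated as similar to mast cell protease 8, averaged 168. These proteases belong to families of close relatives, and the array was not checked for cross-hybridization.

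The mast cell marker list held 10 genes on the array, of which 4 were members. The receptor tyrosine kinase Kit was detected on all 8 arrays, with means of 186 (maturation) and 208 (secretory). The defining markers Fcer1a, Ms4a2 and Tpsab1, the receptor and tryptase of these cells, were detected on no array. Neither was the gene that the array calls Mcpt1, whose symbol has since changed; the current symbol of the member Mcpt2 is Mcpt1. Mcpt10 was detected on 3 of 4 maturation arrays. The summed signal of the 10 genes, background included, was 1376 to 1555 on the maturation arrays and 1094 to 1157 on the secretory arrays. The part of this list in the other members' values was not tested.

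Muscle genes included Sgca, a sarcoglycan of the muscle membrane, and Des, the intermediate filament desmin. Sgca read 160.06, 174, 164 and 201 on M1 to M4 and 94.9 to 109.6 on the secretory arrays. Des averaged 177 ± 22.0 and Rgs5, also a pericyte gene, 159 ± 14.5 (SD, n = 4 each). Array M4 was the highest for Sgca.

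Some skeletal muscle markers that were not members read high on that same array. Acta1, skeletal actin, read 485 on M4, 138 to 176 on M1 to M3 and 142 to 254 on the secretory arrays, and Ckm, muscle creatine kinase, 337, 125 to 146 and 114 to 190.3. Actn3, a muscle actinin, read 147 on M4 and 132 to 140.4 on M1 to M3, and its secretory mean of 184 was above its maturation mean of 138. The summed signal of the 11 listed genes on the array was 1598 to 2827 on the maturation arrays, with the highest sum on M4. It was 1328 to 1659 on the secretory arrays, so the ranges of the stages overlapped. Acta1, Tnnt3, Tnnc2 and Actn3 were detected on all 8 arrays. The part of the listed genes in the value of Sgca was not tested.

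The 13 immune and inflammatory genes had a median maturation signal of 142.9. Tm7sf4, the fusion protein DC-STAMP of osteoclast precursors, was the brightest with 257, 171, 187 and 160.09 on M1 to M4 and 91.1, 103, 103 and 101 on S1 to S4, at least 2.41-fold (1.40-fold without background correction). M1 stood above the others. Of the osteoclast markers that were not members, cathepsin K, Ctsk, was highest on M1 at 20273 against 14820 to 16096 on M2 to M4. Atp6v0d2, a proton pump subunit, was also highest on M1 at 926 against 489 to 551. Mmp9, a gelatinase, was highest on M3 at 1949 against 1600.3 on M1. The osteoclast list held 6 genes on the array, 4 of them detected on all 8 arrays, and summed to 16891 to 23309 on the maturation arrays against 5810.2 to 8054 on the secretory arrays. Its part in the value of Tm7sf4 was not tested.

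Complement was represented by C6, a component of the membrane attack complex, at 157 and Cfb, factor B of the alternative pathway, at 151. Zbp1, a sensor of nucleic acids, averaged 151 and Samhd1, a nucleotide hydrolase that restricts viruses, 145. Tap2, the peptide transporter of antigen presentation, averaged 135 and the class I molecule RT1-CE10 130.4, and Klre1, a receptor of natural killer cells, 136. Ctsw, a cathepsin of T cells and natural killer cells, read 176, 185, 180.5 and 219.7 against 104 to 117.

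The T and NK cell list held 12 genes on the array and Ctsw was its only member gene. Of these, 9 were detected on all maturation arrays and 3 (Cd8a, Prf1 and Nkg7) on all arrays of both stages, and Cd3d and Gzma on none. The list summed to 1788 to 2005 on the maturation arrays against 1348 to 1472 on the secretory arrays. No background was subtracted from this or any other list sum. The background level of each probe was 105 to 111 on the maturation arrays and 101 to 102 on the secretory arrays, so much of this sum is background. Sox10, Mfap5, Des and Rgs5 were the members on the lists of nerve, fibroblast and pericyte markers. The nerve list summed to 6702 to 9683 on the maturation arrays against 3778 to 4625 on the secretory arrays. Most of this sum came from Pmp22, with means of 5962 (maturation) and 2478 (secretory). Tubb3 of the same list went the other way, with means of 167 (maturation) and 371 (secretory). The fibroblast list summed to 85392 to 102630.0 on the maturation arrays and 67236 to 77665 on the secretory arrays, with 10 of its 13 genes detected on all 8 arrays. The smooth muscle and pericyte list, with 3 of 7 genes detected throughout, summed to 3372 to 4473 and 2413.5 to 3270.2, and the part of these lists in the member values was not tested. None of the genes on the lists for macrophages and leukocytes, B cells, neutrophils, endothelium, odontoblasts and osteoblasts, erythroid cells, adipocytes, secretory ameloblasts or the cell cycle was a member. The raw sums of several of these lists were also higher in the maturation stage. Such a sum can rest on its brightest gene. The summed signal of all probes was also higher there, 13355073 to 16122665 against 11881691 to 12046793. The macrophage and leukocyte list, with 12 of 16 genes detected on all 8 arrays, summed to 16853 to 20093 on the maturation arrays against 5943 to 7294 on the secretory arrays. The neutrophil list, with 2 of 11 genes detected throughout and 4 on no array, summed to 1972 to 2948 against 1320 to 1463. The odontoblast and osteoblast list summed to 40930.0 to 50027 against 14414 to 29510.0, the endothelium list to 9609 to 10687 against 5333 to 6581, the adipocyte list to 2049 to 2690 against 950.2 to 1014, and the cell cycle list to 8010 to 10110.0 against 6172 to 7104. The sums overlapped between the stages for the B cell list (657 to 783 and 590 to 682) and the erythroid list (49937 to 56809 and 41558 to 58967), and secretory ameloblast markers summed to 32320.0 to 57385 against 58408 to 62760.0. The part of these lists in the immune and other member values was not tested. Of the 6 maturation ameloblast markers on the array, Klk4 alone was a member, and Car6 and Tfrc were detected on all 8 arrays. Their list summed to 32467 to 43268 and 802 to 938.

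Among the rest, G7c, now Vwa7, was the brightest of the other or not characterised genes. It read 341, 350.5, 273 and 328 on M1 to M4 and 111, 113, 110.3 and 117 on S1 to S4, at least 5.73-fold (2.28-fold without background correction). LOC314647, now the RNA-binding protein Celf5, read 353, 267, 240.5 and 287, at least 4.78-fold (2.03-fold without), and Tmem8, now Pgap6, 258, 259, 235 and 232, at least 3.82-fold (1.77-fold without). Tnfaip8l3, a phosphoinositide transfer protein, Okl38, an oxidative stress-induced growth inhibitor, and Cdkn2b, the p15 inhibitor of cyclin-dependent kinases, averaged 244, 188 and 181. The keratins Ka16 and Ka15, now Krt16 and Krt15, averaged 145.9 and 145.7, and Ka16 had the lowest secretory mean of all members at 96.0.

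By a pattern on the array's own symbols, no member belonged to the families of ribosomal proteins, of kinesins, dyneins and tubulins, or of cadherins, claudins and other junction genes, which had 144, 70 and 117 probes on the array. The member LOC303575, which this pattern cannot catch, is now Kif18b, a kinesin. Symbols that are predicted models made up 36.3% of the members and 37.0% of all probes, and LOC or RGD symbols 30.7% and 43.1%. The members lay on all 20 numbered autosomes and on X by the array's annotation, and 1 was unplaced. Chromosome 10 had the most, 24, and by share of the probes of a chromosome 17 and 19 had the most, with 1.68% and 1.62% against 1.48% for 10. In the GRCr8 gene order, 4 pairs of members were direct neighbours among protein-coding genes: Plekhg4 and Kctd19, Il1f10 and Il1rn, LOC297077 (now Tmem176a) and Abp1, and Fbxo2 with RGD1562463 (now Fbxo44).

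The arrays of one stage differed for the members as they did for the background. Array M3 had the lowest raw signal of the 4 maturation arrays for 136 of 215 members, and the highest for 8, and it also had the lowest background at 105. Relative to each array's background, M3 was lowest for 76, and after normalization for 41, while M1 was then lowest for 74. The median member signal was 149 on M1, 145 on M2, 137 on M3 and 145.5 on M4. The order of the raw maturation signals of a dim member is therefore given here as measured and read no further.

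The bead error shows how firmly single members were detected. A median of 42 to 43 beads per maturation array read a member, and the fewest was 19. On all 4 maturation arrays 96 members were brighter than the lowest detected signal by more than 2 standard errors of their beads, and 21 members on none. A detection p below 0.01 on all maturation arrays was reached by 78 members, a p of 0.20 or more on all secretory arrays by 38, and both by 13. On at least 1 secretory array 108 members had a p between 0.05 and 0.10.

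Membership depended on the threshold more than the number of members did. With 0.01 in place of 0.05 for both stages the rule gave 249 genes, of which 78 were among the 215 (31.3% of the 249 and 36.3% of the 215). With 0.10 it gave 173 genes, and 107 of them were shared (61.8% and 49.8%). At all 3 thresholds 41 genes qualified, among them LOC298340, Snap25, Gpr155, Nrip3, LOC314647, Fos, Kcnh2, Cdkn2b and Tm7sf2, and Klk4 did not.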

How the data were processed

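RNA from the enamel organs of 4 rats, taken at both stages of enamel formation, was read on 8 expression arrays. For each of 22523 probes and each array the authors deposited a mean bead intensity, without background correction or normalization, and a detection p-value. The deposited table also holds the standard error of the bead signal and the count of beads. The summarising software and genome build are not given in the sources used here.

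Members were taken from the detection p-values as deposited, with no filter. The members, gene lists and families were chosen with earlier results of these data and the study's table of changed probes known, and the kinds were assigned by hand after the members were seen. Named genes were the 12 brightest, those on marker lists, up to 3 per family, those next to the threshold and those with another probe or an outlying array; genes named beyond this rule were chosen with their values in view. The background of an array was the median signal of probes with a detection p of 0.45 to 0.55.

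For bounds and calls, limma 3.58.1 in R 4.3.3 was used: neqc (with negative controls derived from detection p-values, offset 16, quantile normalization, log2), then lmFit and eBayes over all probes with Benjamini-Hochberg adjustment. The fit was also run on simulated data with the same noise level for every probe, which says little about dim members. Current symbols were matched by gene ID for 194 members to a GRCr8 table, and promoters come from RefSeq. Per array, 10667 to 11450 probes were detected, and the number of arrays limits the precision. The 4 replicate numbers name the rats. Over 11233 probes detected on at least 4 arrays, each rat's deviations from the mean of either stage correlated with each other at 0.196, 0.13, 0.221 and 0.234. Alternatives were other detection thresholds, background corrections, offsets and normalizations, a detection filter, the methods' Student test, a block for the rat, and each array left out. Some members are counted but not reported by name here.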

Additional observations from a re-analysis of the deposited data

Results flagged for a closer look

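Over all 215 members, 29 of 430 sets of 4 signals held an array whose gap to its nearest neighbour was, as a share of the range, past Dixon's 95% critical value for 4 samples, where chance gives about 1 in 20, or 21.5. The 14 such sets among the named members are given here; some of these genes were named because of the outlying array, so their number is not set against chance.

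On maturation replicate 1 the raw signal was the highest for Dnase2b, a nuclease, at 231.99 against 159.88 to 163.36 on the other arrays. The same array was highest for Arhgap22 at 219.29 against 202.92 to 204.89, for Pfkfb2 at 148.98 against 131.18 to 134.11 and for Mmp3 at 144.82 against 134.1 to 134.99.

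On maturation replicate 3 the signal was the lowest for RGD1307943, now Efcab10, at 151.81 against 183.53 to 187.53, for Galnt10 at 144.91 against 178.7 to 183.49 and for Syngr1 at 130.46 against 154.52 to 158.86. For Il1f10 the same array was the highest, at 152.81 against 139.79 to 141.59.

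In the secretory stage, where none of these probes was detected, replicate 4 was the lowest for Tm7sf2 at 99.47 against 107.6 to 108.17. It was the highest for RGD1563599, now Sh3bgr, at 114.43 against 103.93 to 105.35 and for LOC303575 at 117.09 against 114.58 to 114.94. Replicate 2 was the highest for Pcsk1 at 110.22 against 100.41 to 101.78 and for Syngr1 at 114.55 against 105.2 to 105.38, and replicate 1 the lowest for Pln at 101.43 against 114.91 to 116.53.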

How the results depend on the processing

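The rule gave 249 genes at a detection threshold of 0.01, 173 at 0.10, 78 with maturation p below 0.01 and the secretory side as before, and 38 with secretory p of 0.20 or more. Leaving out 1 array gave 241 to 268. Removing genes with another probe detected in the secretory stage left 208, and removing the current Slc symbols 213; both were chosen after seeing the data. The median maturation signal of 143.9 was 141.6 to 146.3 without 1 array, 171 for the members at 0.01 and 35.0 after subtraction of the array background, which differs by construction. The median bound of 1.31-fold was 1.23 with normexp without negative controls, 1.09 with no background correction, 1.16 with an offset of 50, 1.42 with cyclic loess, 1.38 with median scaling, 1.60 with no normalization between arrays, and 1.305 to 1.321 without 1 array; the cause was not tested.

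Of the members, 95 were called higher, 95 as well with the rat as a block (each rat gave both stages, so the numbers pair the samples), 81 to 133 with normexp without negative controls or the other normalizations, 37 with an offset of 50, 15 with no background correction and 86 to 98 without 1 array. The methods' Student test, after Benjamini-Hochberg adjustment, gave 93. The low signal over background of most members limits all of these values. Detection compares a probe with negative controls on 1 array, so an undetected probe can still have a low level, and the raw signals are not normalized between stages.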
